A study of Mus musculus with 40 samples.

Results

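The comparison described here set mouse embryonic stem cell aggregates treated with XAV939 against untreated aggregates at day 6, 3 days after the inhibitor had been removed. It took all 8 day 6 libraries of a series of 40, 4 from XAV939 aggregates and 4 from untreated aggregates, with the libraries of the same replicate number treated as a pair. The XAV939 group consisted of embryonic stem cells of the line CGR8 (strain 129), aggregated in serum-free N2B27 medium with Activin-A, Fgf2 and KSR, exposed to XAV939 from 0 to 72 h and collected at day 6. The untreated group was the same line in the same medium without XAV939, collected on the same day. Activin-A and Fgf2 were therefore part of both groups, and both came from 1 cell line. The titles of the untreated libraries state the absence of matrigel while those of the XAV939 libraries are silent on it, so a difference in matrigel, if there was one, cannot be told apart from XAV939. The labels do not say whether the replicates were separate cultures, so every p-value below measures only the spread between libraries of this series. Unless stated otherwise, that spread was estimated over all 40 libraries and not from the 8 of day 6 alone.

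Wnt ligands act through Frizzled and Lrp receptors to stop a destruction complex of Axin, Apc and Gsk3 from marking β-catenin for degradation, and the stabilised β-catenin then activates target genes together with Tcf/Lef factors. XAV939 inhibits the tankyrases, enzymes that mark Axin for degradation, and so keeps the destruction complex active. In the mouse embryo Wnt signalling, together with Nodal and BMP, is known to drive formation of the primitive streak, from which mesoderm and definitive endoderm arise, and to hold back anterior neural fate.

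The 4 XAV939 libraries held between 34295564 and 38423113 counts and the 4 untreated libraries between 30734339 and 37727868. Levels are given in CPM, a gene's counts over its library's total after scaling with trimmed means of M values, in the order of libraries 1 to 4 of each group. Of 16878 genes tested, edgeR's quasi-likelihood test with pairs as a block called 732 higher and 995 lower in XAV939 aggregates at a Benjamini-Hochberg adjusted p below 0.05. These were 4.34% and 5.90% of the genes tested, and the median log2 fold change of all genes was 0.00. Untreated library 3 stood apart. Its mean correlation with the rest of its group was 0.96, against 0.974 to 0.979 for the other 3 untreated libraries and 0.984 to 0.99 for the XAV939 libraries. Its share of mitochondrial counts was 0.915%, against 1.57% to 3.07% in the other 7 libraries, and its summed level of 21 glycolysis and hypoxia genes was 13867 CPM, against 8585 to 10796 CPM in those 7. The calls below were therefore also computed without pair 3, which left 577 genes higher and 734 lower (3.39% and 4.31% of the genes then tested). A fit that ignored the pairs called 235 higher and 498 lower (1.39% and 2.95%). The 8 day 6 libraries alone, with pairs as a block, gave 101 higher and 210 lower. That setting is given below for some genes only. Pou5f1 and Nanog, markers of undifferentiated stem cells, were far below their levels of earlier days. Nanog averaged 183 CPM with XAV939 and 242 CPM untreated at day 4, and 3.9 and 7.54 CPM at day 6. Pou5f1, which encodes Oct4, averaged 803 CPM with XAV939 and 788 CPM untreated at day 3. At day 6 Pou5f1 was at 9.88, 21.9, 31.4 and 11 CPM in XAV939 libraries and at 3.28, 58.6, 138 and 22.3 CPM in untreated libraries, where its spread was the wider (adjusted p 0.246). Without pair 1 its log2 fold change was -1.54 (adjusted p 0.0307). Some markers of mature lineages were near 0 or below the filter. Trp63, of stratified epithelium, did not exceed 0.11 CPM, Nkx2-5, of the heart, did not exceed 0.259 CPM, and Hbb-bh1, of primitive blood, and Afp and Amn, of yolk sac endoderm, were not tested. Other markers of these lineages passed the filter. Ttr, of yolk sac endoderm, fell (log2 fold change -2.36, adjusted p 0.0436), as did Myl7, of the heart, described below. Tnnt2, of the heart, Gata1, of blood, and Krt5, of stratified epithelium, were tested and not called.

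XAV939 aggregates had lower levels of genes of epithelial cells and of the endoderm. All 21 tested genes of an epithelial list (cell junction proteins, simple keratins and their regulators) had negative fold changes, and 16 of them fell, with a median log2 fold change of -1.46. The same number fell without pairing and without pair 3. The summed level of the list was 317, 534, 403 and 305 CPM in XAV939 libraries and 771, 1291, 1811 and 651 CPM in untreated libraries, without overlap between the groups. In bulk libraries fewer cells of a type and less RNA per cell cannot be told apart.

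Epcam (ENSMUSG00000045394, chromosome 17, 87635979 to 87651129, plus strand, mm10), a cell adhesion protein of epithelia, stood at 18.2, 26.8, 25.3 and 14.8 CPM in XAV939 libraries against 53.9, 78.7, 113 and 36.5 CPM in untreated libraries. Every untreated library was above every XAV939 library, with untreated library 3 the highest and library 4 the lowest of their group. On the log2 scale XAV939 libraries were lower by a fold change of -1.65 (SE 0.199, adjusted p 3.59e-05 in edgeR's quasi-likelihood test). Cdh1, which encodes E-cadherin, was at 58.9, 98.2, 87.3 and 52.2 CPM in XAV939 libraries and at 156, 300, 250 and 135 CPM in untreated libraries. Its groups did not overlap, and in both groups library 2 was the highest and library 4 the lowest (log2 fold change -1.48, SE 0.187, adjusted p 5.36e-05). The tight junction gene Cldn6 averaged 36.4 ± 9.73 CPM in XAV939 aggregates and 108 ± 44.9 CPM in untreated aggregates (SD, n = 4 each), 2.85-fold lower with XAV939 (adjusted p 2.79e-06). Another claudin gene, Cldn7, was 4.75-fold lower (adjusted p 3.66e-05). The keratin genes Krt8 and Krt18, which encode partners in the filaments of simple epithelia, fell together, Krt8 by 1.37 (SE 0.201) and Krt18 by 1.43 (SE 0.188) in log2 units. Both calls ended with the 8 day 6 libraries alone (adjusted p 0.0882 for Krt8 and 0.0738 for Krt18). That of Krt8 also ended with neither pairing nor untreated library 3 (0.0502). Krt8 shares 5.16% of its exonic bases with a gene on the opposite strand, and since the strand setting of the counting is not given in the sources used here, those reads cannot be assigned.

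Promoter sequence was examined because 16 members of the epithelial list fell together. The E-box CACCTG is known from other work as a sequence that Snai and Zeb repressors of epithelial genes bind. It was searched on both strands (CAGGTG on the other) in the 250 bases before the RefSeq start of each gene. Of the 16 epithelial genes that fell, 9 had a RefSeq promoter for GRCm38.p6, and 7 of these (77.8%) held the letters. They were Cldn4, Cldn6, Epcam, Krt18, Krt7, Krt8 and Rab25. Among all tested genes with a promoter 2066 of 12745 held them (16.2%), among genes that fell 185 of 728 (25.4%) and among genes that rose 106 of 555 (19.1%). Other letters were searched in the same 9 promoters. Another E-box, CAGCTG, was in 1 of them (11.1%, against 12.2% of all promoters). The letters AACCNGTT of grainyhead factors were in 1 as well (11.1%, against 1.61%). The Tcf/Lef letters CTTTGAA and CTTTGAT were in 0. CACCTG is thus the most frequent of several letters searched in few promoters. A match describes letters and no binding. Members of the epithelial list that did not fall were not counted as a set of their own, so a link between the letters and the fall was not tested. The promoters of the 4 genes with CACCTG described above are shown 5′ to 3′ on the gene's strand, with that E-box in capitals. They end at the RefSeq start, which for Cldn6, Krt8 and Krt18 lies inside the GENCODE gene model, so part of the window is transcribed in that annotation. They lie at chr17:87635729-87635978 (plus strand, Epcam), chr17:23679115-23679364 (plus strand, Cldn6), chr15:102004343-102004592 (minus strand, Krt8) and chr15:102027966-102028215 (plus strand, Krt18).
Epcam: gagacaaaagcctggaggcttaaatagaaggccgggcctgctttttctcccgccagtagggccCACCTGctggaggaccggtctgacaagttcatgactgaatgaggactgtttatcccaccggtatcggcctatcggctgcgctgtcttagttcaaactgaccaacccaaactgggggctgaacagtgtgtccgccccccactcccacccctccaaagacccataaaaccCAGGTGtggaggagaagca
Cldn6: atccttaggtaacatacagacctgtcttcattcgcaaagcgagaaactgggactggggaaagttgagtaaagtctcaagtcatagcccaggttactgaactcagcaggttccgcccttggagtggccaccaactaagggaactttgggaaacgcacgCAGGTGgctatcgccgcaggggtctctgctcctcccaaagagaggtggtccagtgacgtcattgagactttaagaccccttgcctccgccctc
Krt8: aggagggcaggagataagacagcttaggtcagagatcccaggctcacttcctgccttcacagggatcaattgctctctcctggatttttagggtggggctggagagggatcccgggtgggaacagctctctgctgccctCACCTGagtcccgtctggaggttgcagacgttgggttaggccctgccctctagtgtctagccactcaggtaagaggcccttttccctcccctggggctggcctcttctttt
Krt18: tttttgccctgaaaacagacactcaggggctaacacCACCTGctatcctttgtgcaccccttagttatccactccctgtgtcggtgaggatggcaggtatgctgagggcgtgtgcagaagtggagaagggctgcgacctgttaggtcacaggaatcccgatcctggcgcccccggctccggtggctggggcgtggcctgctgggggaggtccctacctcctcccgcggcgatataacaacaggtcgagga
The first E-box of the Epcam promoter starts 187 bases before the RefSeq start and the second 19 bases before it. The single match starts 93 bases upstream in Cldn6, 111 in Krt8 and 214 in Krt18.

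Among genes of the factors known to bind such E-boxes, Zeb2 was called higher and Snai2 lower. Snai1 (log2 fold change -0.88, adjusted p 0.0555 in edgeR's test) and Zeb1 (0.59, adjusted p 0.0807) were not called. Zeb2 was at 76.4, 94.3, 79.9 and 108 CPM in XAV939 libraries against 57.8, 60.4, 19.6 and 90.2 CPM in untreated libraries. All 4 pairs were higher with XAV939, most of all pair 3, and the groups overlapped (log2 fold change 0.81, SE 0.22, adjusted p 0.0217). Without pairing its adjusted p was 0.218, and without pair 3 the log2 fold change was 0.45 (adjusted p 0.136). Snai2 was at 1.89, 0.716, 0.81 and 0.86 CPM in XAV939 libraries and at 7.97, 1.23, 1.49 and 1.52 CPM in untreated libraries. It was lower in all 4 pairs (log2 fold change -1.20, adjusted p 0.00678), but untreated library 1 was far above the others, and without pair 1 the adjusted p was 0.0999 (0.0798 without pairing).

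Of 21 tested endoderm and gut genes 13 fell and none rose, with a median log2 fold change of -1.37 and all 21 negative. The list shares Epcam, Cldn6, Krt8 and Krt18 with the epithelial one. Gata4 (chromosome 14, 63198922 to 63271692), a zinc finger factor of endoderm and heart, was at 2.19, 1.71, 2.51 and 0.703 CPM in XAV939 libraries against 24.8, 20.9, 18.6 and 5.04 CPM in untreated libraries. Library 4 was the lowest of each group, and the groups were fully apart. Gata4 was 9.37-fold lower with XAV939 (log2 fold change -3.23, SE 0.416, adjusted p 6.35e-05). Its relative Gata6 was 4.7-fold lower, with 4.15 ± 1.24 CPM in XAV939 aggregates and 20.6 ± 9.36 CPM in untreated aggregates (SD, n = 4 each, adjusted p 0.00153). Hnf4a, a nuclear receptor of liver and gut endoderm, was 7.23-fold lower (adjusted p 2.66e-05) and did not exceed 3.37 CPM in any library. Foxa2, a forkhead factor of endoderm and the notochord, was at 15.4, 32.7, 15.5 and 18.2 CPM in XAV939 libraries and at 18.4, 37, 51.9 and 23.5 CPM in untreated libraries. Its groups overlapped, and the log2 fold change of -0.63 did not pass the test (adjusted p 0.347). Sox17, which acts in endoderm and endothelium, was at 9.41 ± 2.62 CPM in XAV939 aggregates and at 22.9 ± 7.59 CPM in untreated aggregates (adjusted p 0.0128). Its call ended without pairing (adjusted p 0.24), with DESeq2 (0.11) and without pair 3 (0.0533).

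**Figure D1:**
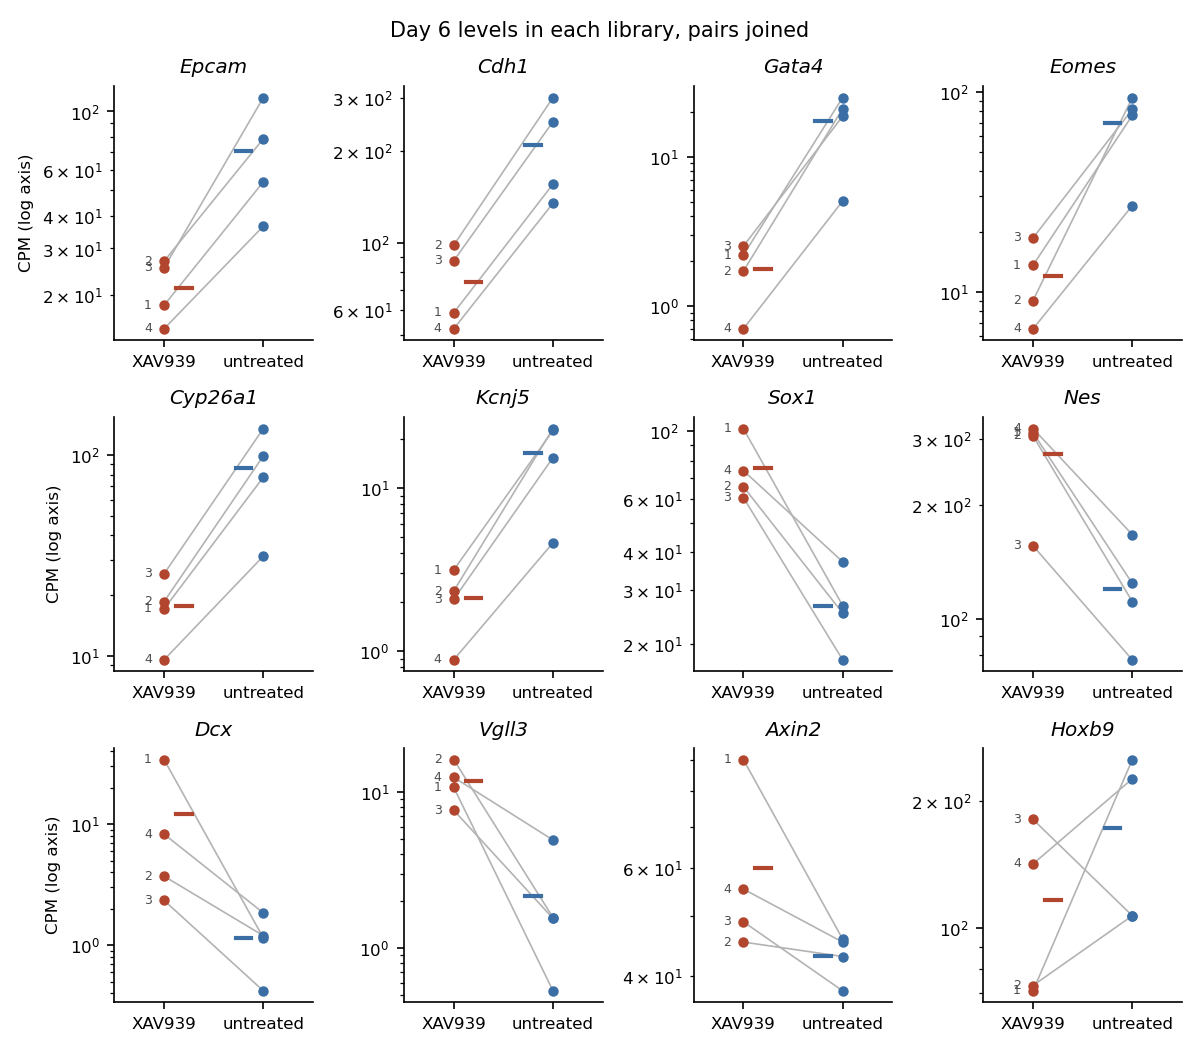
Level of 12 genes in each day 6 library in CPM on a log axis, XAV939 libraries in red at the left and untreated libraries in blue at the right. Grey lines join libraries of the same replicate number, digits give that number and short bars the group mean. Epcam, Cdh1, Gata4, Eomes, Cyp26a1 and Kcnj5 were below the untreated libraries in all 4 pairs, Sox1, Nes, Dcx and Vgll3 were above them in all 4, and the lines of Hoxb9 cross.

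Genes of Nodal signalling and of the primitive streak were lower in XAV939 aggregates. Nodal is the ligand that, like the Activin-A in the medium, signals through Smad2, with Foxh1 as a nuclear partner and Lefty2 as a secreted inhibitor. All 11 tested genes of the Nodal/Activin list had negative fold changes, with a median log2 of -1.28, and 7 fell (4 without pairing, 2 without pair 3). All 16 streak genes were negative as well, with a median of -0.78, and 6 fell (2 without pairing, 3 without pair 3). The lists share Eomes, Gsc and Nodal.

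Nodal itself was at 3.12, 5.26, 7.27 and 5.44 CPM in XAV939 libraries against 6.24, 14.8, 28.7 and 8.15 CPM in untreated libraries. Every pair was lower with XAV939, but untreated library 1 lay within the XAV939 range (log2 fold change -1.28, SE 0.335, adjusted p 0.0171). Its call ended without pair 2 (adjusted p 0.0705) and without pair 3 (0.146). Foxh1 fell by 1.03 (SE 0.122, adjusted p 2.86e-05), with 44.3 ± 18.7 CPM in XAV939 aggregates and 91.9 ± 41.4 CPM in untreated aggregates, and the call held without each pair but not without pairing (adjusted p 0.0642). Lefty2 was at 0.957, 1.35, 4.08 and 2.08 CPM in XAV939 libraries and at 2.24, 6.48, 16.1 and 2.29 CPM in untreated libraries. In both groups library 3 was the highest. The log2 fold change of -1.46 had an adjusted p of 0.00478, which was 0.0543 without pairing and 0.0601 without pair 3.

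Eomes (chromosome 9, 118478212 to 118486132), the T-box factor that responds to Nodal in streak and endoderm precursors, was at 13.6, 9.06, 18.6 and 6.54 CPM in XAV939 libraries. Untreated libraries held 76.2, 93.5, 81.7 and 27 CPM, each above every XAV939 library (log2 fold change -2.50, SE 0.373, adjusted p 2.07e-04). Gsc, a homeobox factor of the anterior streak, averaged 0.656 ± 0.25 CPM in XAV939 aggregates and 2.92 ± 2.64 CPM in untreated aggregates, and the mesoderm factor Mesp1 1.18 ± 1.11 CPM in XAV939 aggregates and 4.11 ± 4.79 CPM in untreated aggregates. Both were lower in all 4 pairs (adjusted p 0.00859 for Gsc and 0.00569 for Mesp1), and both calls ended without pairing (0.075 for Gsc and 0.316 for Mesp1). That of Gsc also ended without pair 3 (0.0812). T, the brachyury gene of the streak and tail bud and a Wnt target, was at 36.3, 105, 56.6 and 66.8 CPM in XAV939 libraries and at 16.4, 102, 130 and 83.7 CPM in untreated libraries. The direction differed between pairs, with 2 higher and 2 lower, and the log2 fold change was -0.10 (SE 0.572, adjusted p 0.931). Fgf5, a growth factor of the primed epiblast, was at 13.2, 10.6, 18.2 and 7.35 CPM in XAV939 libraries against 36.2, 67.6, 74.4 and 26.2 CPM in untreated libraries, with no overlap. It was 4-fold lower with XAV939 (adjusted p 1.39e-04).

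BMP ligands form another family of signals at the streak. Of 19 tested BMP genes 7 fell and 1 rose, with a median log2 fold change of -0.44 (0 rose and 2 fell without pairing, 0 and 4 without pair 3). Bmp2 was at 5.11, 5.87, 2.89 and 2.47 CPM in XAV939 libraries and at 13.1, 13.1, 10.1 and 6.71 CPM in untreated libraries. Libraries 3 and 4 were the lower ones in each group, and no library crossed into the other group's range (log2 fold change -1.43, SE 0.194, adjusted p 9.43e-05). Bmp4 was 1.99-fold lower (adjusted p 0.00311), at up to 1.69 CPM in XAV939 libraries and from 2.05 CPM in untreated libraries. Without pairing the adjusted p was 0.0581 for Bmp2 and 0.0621 for Bmp4. Id1, a transcriptional target of BMP signalling, was 2.2-fold lower with XAV939 (adjusted p 2.89e-04). Bmp6 was the member that rose (log2 fold change 0.77, adjusted p 0.0188). Its call ended without pairing (0.103), without pair 1 (0.14) and without pair 3 (0.0561).

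Members of lists of the heart, of endothelium and blood and of lateral plate mesenchyme also fell. Of 18 tested cardiac genes 8 fell, with a median log2 fold change of -1.26 (6 without pairing, 5 without pair 3). Of 19 endothelial and blood genes 10 fell (4 without pairing, 6 without pair 3), with a median of -1.09 and all 19 negative. Of 20 mesenchyme genes 6 fell and 1, Zeb2, rose, with a median of -0.90 (0 rose and 2 fell without pairing, 1 and 3 without pair 3, where the riser was not Zeb2). The mesenchyme list summed to 555, 422, 341 and 470 CPM in XAV939 libraries and to 595, 370, 418 and 412 CPM in untreated libraries, so that the groups overlapped and pairs 2 and 4 were higher with XAV939. The summed level of the cardiac list was 41.5, 37.5, 31.7 and 31.2 CPM in XAV939 libraries and 123, 98, 94.4 and 44.8 CPM in untreated libraries, and Nkx2-5, a defining heart factor, was near 0 in all 8.

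Myl7, a myosin light chain of the atrium, was at 1.08, 0.826, 1.13 and 0.26 CPM in XAV939 libraries against 7.62, 3.91, 10.9 and 0.909 CPM in untreated libraries. Pair 4 was the lowest in each group, and untreated library 4 lay within the XAV939 range (log2 fold change -2.64, SE 0.35, adjusted p 8.17e-05). Tbx20, a T-box factor of the heart, was 5.65-fold lower (adjusted p 2.61e-04), with 0.858 ± 0.413 CPM in XAV939 aggregates and 6.03 ± 5.8 CPM in untreated aggregates. Hand2, a factor of heart and limb mesenchyme, was at 0.0756, 0, 0 and 0.0781 CPM in XAV939 libraries and at 2.56, 0.6, 0.646 and 0.0586 CPM in untreated libraries (adjusted p 0.00957). Its call ended without pair 1 (0.112) and with DESeq2 (0.0521), and 19.6% of its exonic bases overlap an antisense gene.

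Runx1, a factor of blood formation, was at 1.23, 1.4, 1.22 and 1.35 CPM in XAV939 libraries and at 4.66, 4.97, 2.07 and 2.76 CPM in untreated libraries. The XAV939 libraries lay close together and below all untreated ones (log2 fold change -1.40, SE 0.216, adjusted p 2.87e-04). Kdr, the VEGF receptor of endothelial precursors, was at 9.67, 4.02, 5.29 and 3.18 CPM in XAV939 libraries against 55.6, 7.37, 7.3 and 5.16 CPM in untreated libraries. Untreated library 1 held most of the difference. The log2 fold change was -1.17 (adjusted p 0.0192), without pair 1 it was -0.68 (0.159), and without pairing the adjusted p was 0.08. Etv2, the factor that starts the endothelial program, fell by 1.56 (adjusted p 0.0104), and its adjusted p was 0.109 without pair 1. Twist1, a mesenchymal factor, fell by 1.09 (adjusted p 0.00774), with 0.0769 without pair 1.

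Tnc, the matrix protein tenascin C, was among the 12 largest falls at day 6, at 1.41, 1.29, 0.864 and 0.886 CPM in XAV939 libraries against 28.7, 11.5, 4.78 and 2.08 CPM in untreated libraries. All untreated libraries were above the XAV939 range, though they differed widely among themselves (log2 fold change -2.92, SE 0.369, adjusted p 5.36e-05). Alx1, a homeobox factor of head mesenchyme, was 6.92-fold lower (adjusted p 4.44e-05) and Rgs5, a pericyte gene, 6.83-fold lower (adjusted p 0.00231) with XAV939. Of 20 tested genes of a collagen and matrix list 2 fell and 1 rose, with a median log2 fold change of -0.14. The basement membrane genes Lamb1 and Col4a1 fell by 0.73 (adjusted p 5.13e-05) and 0.56 (adjusted p 6.02e-04, and 0.13 without pairing) in log2 units, while Thbs1, a matrix glycoprotein, rose 2.83-fold (adjusted p 0.00208).

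**Figure D2:**
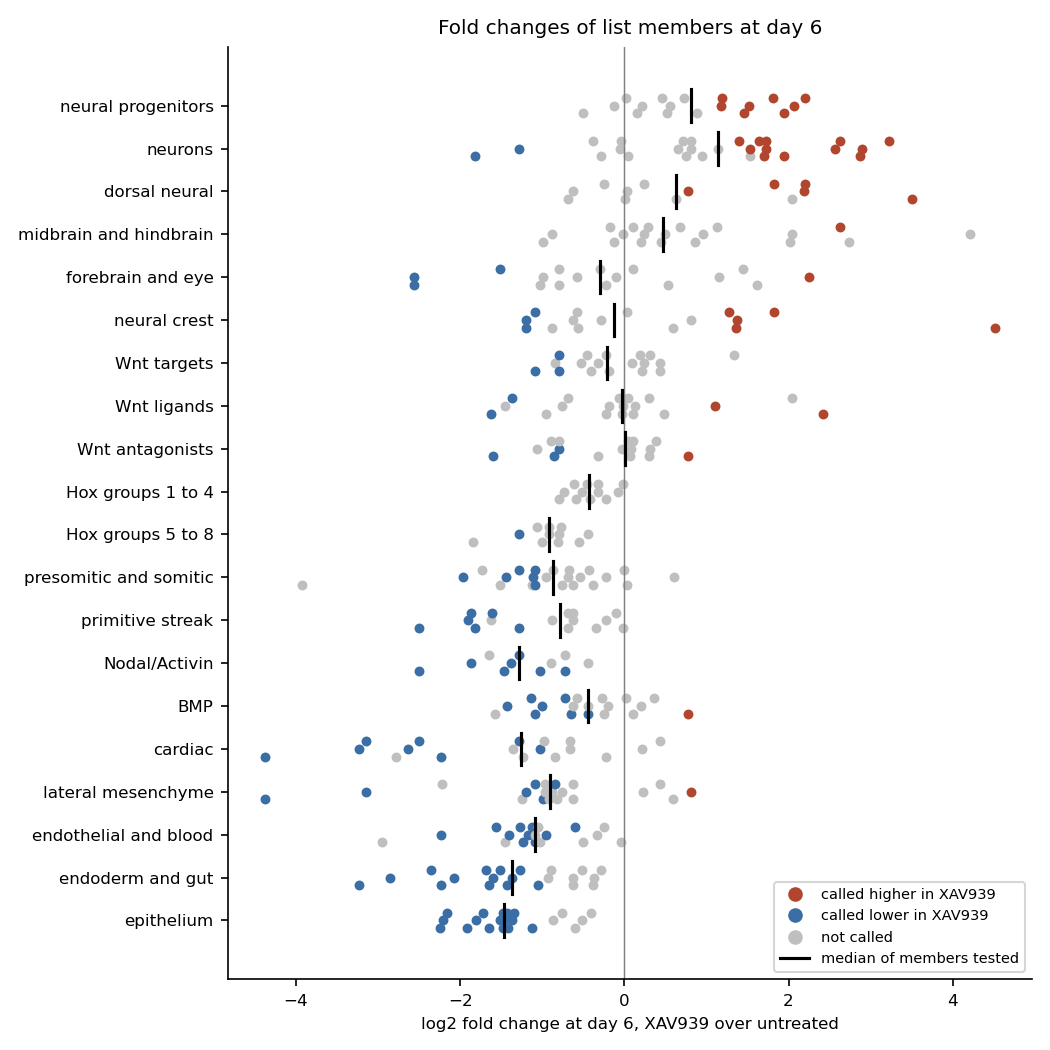
Log2 fold change, XAV939 over untreated, of the tested members of 20 gene lists at day 6. Each point is 1 gene, red where called higher in XAV939 aggregates, blue where called lower and grey where not called, with the median of the tested members as a black bar. Medians run between -1.46 for epithelium and 1.14 for neurons, and no member of the epithelium, endoderm, Nodal/Activin or streak lists was called higher.

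Of 18 tested Wnt target and feedback genes 3 fell and 0 rose at day 6, 3 days after XAV939 had been removed, with a median log2 fold change of -0.21 (1 rose and 1 fell without pairing, 0 and 2 without pair 3). Their summed level was 1079, 729, 919 and 857 CPM in XAV939 libraries and 760, 759, 872 and 849 CPM in untreated libraries, and the groups overlapped. Axin2 (chromosome 11, 108920349 to 108950783), a direct target that feeds back on the pathway, was at 90.1, 45.4, 49 and 55.4 CPM in XAV939 libraries against 45.9, 43, 37.8 and 45.4 CPM in untreated libraries. Each pair was higher with XAV939, most clearly pair 1. A log2 fold change of 0.43 (SE 0.177) did not pass the test (adjusted p 0.136). Lef1, a nuclear partner of β-catenin, was at 51.4 ± 18.4 CPM in XAV939 aggregates and 69 ± 18.8 CPM in untreated aggregates (log2 fold change -0.45, adjusted p 0.148), with 13.7% of its exonic bases shared with an antisense gene. Sp5, another direct target, was at 9.8, 4.27, 8.67 and 4.87 CPM in XAV939 libraries and at 3.22, 9.28, 20.6 and 7.33 CPM in untreated libraries. Pair 1 was higher and the other 3 lower with XAV939 (adjusted p 0.549). Tcf7, another nuclear partner of β-catenin, was at -0.19 and the feedback inhibitor Nkd1 at 0.19 in log2 fold change, and neither passed the test (adjusted p 0.486 and 0.533).

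The 3 targets that fell were Bambi, Dkk1 and Rnf43. Bambi, a membrane protein that dampens BMP and TGF-β signals, was at 8.29, 10.1, 10.2 and 7.63 CPM in XAV939 libraries against 20.7, 20.2, 28.5 and 11.1 CPM in untreated libraries. Even the lowest untreated library was above all XAV939 libraries (log2 fold change -1.09, SE 0.133, adjusted p 3.66e-05). Dkk1 (chromosome 19, 30545863 to 30549665, minus strand), a secreted inhibitor that binds Lrp5 and Lrp6, was at 23, 24.8, 16.1 and 11.4 CPM in XAV939 libraries and at 30.1, 39.9, 38.3 and 20.7 CPM in untreated libraries. All pairs were lower with XAV939, with some overlap between the groups (log2 fold change -0.80, SE 0.188, adjusted p 0.00898). Its call ended without pairing (0.486) and without pair 3 (0.0655). Rnf43, a ubiquitin ligase that removes Frizzled from the cell surface, fell by 0.79 (adjusted p 0.00789, and 0.0841 without pairing). The promoter of Dkk1 at chr19:30549497-30549746 (minus strand, GRCm38.p6, RefSeq) is shown because it was the single one of 11 Wnt target promoters to hold the Tcf/Lef letters CTTTGAA (or TTCAAAG on the other strand), which 3.34% of all promoters hold. The letters are in capitals and start 117 bases before the RefSeq start, which lies inside the GENCODE gene model.
Dkk1: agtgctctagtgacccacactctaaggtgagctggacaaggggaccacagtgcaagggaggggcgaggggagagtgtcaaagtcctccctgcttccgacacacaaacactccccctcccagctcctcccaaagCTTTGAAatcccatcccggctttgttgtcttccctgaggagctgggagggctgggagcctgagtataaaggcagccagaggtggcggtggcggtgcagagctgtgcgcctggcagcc
The related letters CTTTGAT, searched on both strands too, were in 1 of these 11 promoters, that of Sp5, and in 2.35% of all promoters.

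Among 19 tested Wnt ligands Wnt7a and Wnt7b rose and Wnt2b and Wnt6 fell, with a median log2 fold change of -0.03 (without pairing 1 rose and 0 fell). Wnt7b, a ligand of neural tissue, was at 10.8, 1.02, 1.32 and 5.31 CPM in XAV939 libraries against 0.453, 0.657, 0.582 and 0.733 CPM in untreated libraries. All XAV939 libraries were above the untreated ones, with libraries 1 and 4 far above (log2 fold change 2.42, SE 0.587, adjusted p 0.0107). The adjusted p was 0.101 without pair 1 and 0.0585 without pair 4. The gene shares 6.61% of its exonic bases with a gene on the opposite strand. Wnt7a was higher in 3 of 4 pairs (log2 fold change 1.11, adjusted p 0.0231), and its call ended without pairing (0.112) and without pair 1 (0.152), pair 2 (0.0699) or pair 4 (0.0896). Wnt2b did not exceed 1.2 CPM in any library (log2 fold change -1.62, adjusted p 0.0259, and 0.171 without pairing, 0.149 without pair 2 and 0.072 without pair 4). Wnt6, at no more than 0.969 CPM in any library, passed narrowly (adjusted p 0.0497) and its call ended without any 1 of the pairs. Wnt3a and Wnt5a, ligands of the tail bud, had log2 fold changes of -0.68 and -0.03 (adjusted p 0.468 and 0.957).

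Of 16 tested secreted and membrane antagonists, Frzb, Shisa2 and Dkk1 fell and Sfrp2 rose (without pairing 0 rose and 1 fell, and likewise without pair 3). Frzb, a secreted Frizzled-related protein, fell by 0.86 (SE 0.126, adjusted p 1.77e-04), with 48.9 ± 14.6 CPM in XAV939 aggregates and 87.9 ± 19.3 CPM in untreated aggregates. Its adjusted p without pairing was 0.22. Shisa2, which retains Frizzled and FGF receptors inside the cell, was at 25, 30.1, 18.2 and 16.2 CPM in XAV939 libraries and at 86.2, 73.8, 68 and 43.6 CPM in untreated libraries, without overlap (log2 fold change -1.60, SE 0.396, adjusted p 0.0121). The adjusted p was 0.0565 without pair 1 and 0.0701 without pair 3. Sfrp2 was higher in all 4 pairs (log2 fold change 0.77, adjusted p 0.0152), with 0.164 without pairing and 0.0595 to 0.0723 without pair 1, 2 or 3, and 16.1% of its exonic bases overlap an antisense gene. Within the destruction complex, where the target of XAV939 acts, 1 of 11 tested genes rose and 0 fell (1 and 2 without pair 3). The gene that rose was Apc2, an Apc relative of the nervous system, at 12.4, 4.21, 3.05 and 8.93 CPM in XAV939 libraries against 1.92, 1.91, 1.42 and 4.22 CPM in untreated libraries (log2 fold change 1.51, adjusted p 0.00891, and 0.0844 without pair 1). Ctnnb1, which encodes β-catenin, was at 1373 ± 39.8 CPM in XAV939 aggregates and 1334 ± 76.3 CPM in untreated aggregates (log2 fold change 0.04, adjusted p 0.649). The tankyrase gene Tnks2 was at 548 ± 51.6 CPM in XAV939 aggregates and 589 ± 105 CPM in untreated aggregates (log2 fold change -0.09, adjusted p 0.585). Untreated library 3 was its lowest, and without pair 3 the log2 fold change was -0.28 (adjusted p 0.0117).

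Neural progenitor genes were higher in XAV939 aggregates. Of 18 tested pan-neural genes 8 rose and 0 fell, with a median log2 fold change of 0.81 (6 rose without pairing and 7 without pair 3). Sox1 (chromosome 8, 12395295 to 12400126), the earliest specific factor of the neural plate, was at 102, 65.7, 60.5 and 74.2 CPM in XAV939 libraries against 26.7, 25.2, 17.7 and 37.2 CPM in untreated libraries. All XAV939 libraries were above all untreated ones (log2 fold change 1.52, SE 0.359, adjusted p 0.00894). The adjusted p was 0.0503 without pairing, 0.0556 without pair 1 and 0.0519 without pair 3. Nes (chromosome 3, 87971078 to 87980451), the intermediate filament nestin of neural progenitors, was at 311, 305, 156 and 319 CPM in XAV939 libraries and at 124, 111, 77.8 and 167 CPM in untreated libraries. Library 3 was the lowest of both groups, and XAV939 library 3 lay below untreated library 4. Within pairs the differences were close to each other, and XAV939 libraries were 2.27-fold higher (log2 fold change 1.18, SE 0.113, adjusted p 2.79e-06).

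Of 4 Pou3f genes, which encode POU factors of the neural plate, Pou3f2, Pou3f3 and Pou3f4 rose, and Pou3f1 had a log2 fold change of 0.56 (adjusted p 0.256). Pou3f2 was at 59.7, 43.1, 19.5 and 62.3 CPM in XAV939 libraries against 18, 12.9, 3.81 and 22.3 CPM in untreated libraries. In both groups library 3 was the lowest, so that the groups overlapped while every pair differed in the same direction (log2 fold change 1.81, SE 0.361, adjusted p 0.00275). Pou3f3 was 3.83-fold higher (adjusted p 5.3e-04) and Pou3f4 4.21-fold higher (adjusted p 3e-04). Sox2, a factor of both pluripotent and neural cells, was at 85.1 ± 11.9 CPM in XAV939 aggregates and 51.8 ± 12.1 CPM in untreated aggregates, without overlap. Its log2 fold change of 0.73 (SE 0.317) did not pass the test (adjusted p 0.156). Pax6, a factor of the neural tube and eye, was at 22.9, 31, 21.9 and 27.2 CPM in XAV939 libraries and at 53.3, 18.8, 7.79 and 33.9 CPM in untreated libraries (adjusted p 0.837). The untreated libraries covered a far wider range than the XAV939 ones, and the direction differed between pairs.

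Of 27 tested genes of neurons and their precursors 12 rose and 2 fell, with a median log2 fold change of 1.14. The summed level of the list was 682, 201, 175 and 270 CPM in XAV939 libraries and 237, 247, 204 and 182 CPM in untreated libraries, so that XAV939 library 1 stood far above all others. Dcx (chromosome X, 143855842 to 143933311), the doublecortin gene of migrating neurons, was at 34.2, 3.72, 2.35 and 8.28 CPM in XAV939 libraries against 1.15, 1.2, 0.42 and 1.85 CPM in untreated libraries. XAV939 library 1 was the highest by far, and the other 3 were also above all untreated libraries (log2 fold change 2.87, SE 0.391, adjusted p 9.78e-05). The RNA-binding protein gene Elavl4 was 2.64-fold higher (adjusted p 4.44e-05), the homeobox gene Onecut1 7.43-fold (adjusted p 1.49e-04) and the microtubule protein gene Map2 3.25-fold (adjusted p 5.51e-04). The calls of Dcx, Elavl4, Onecut1 and Map2 held without each of the 4 pairs. Those of Dcx (adjusted p 0.077) and Map2 (0.082) ended with the 8 day 6 libraries alone, and that of Elavl4 (0.0988) with neither pairing nor untreated library 3. Tubb3, a widely used neuron marker, was at 81.7, 16.4, 12.6 and 26.2 CPM in XAV939 libraries and at 9.41, 8.45, 16.8 and 13.4 CPM in untreated libraries. With XAV939 it was higher in 3 pairs and lower in pair 3 (log2 fold change 1.14, adjusted p 0.0795, and 1.68 with adjusted p 0.0191 without pair 3). The proneural gene Neurog2 had a log2 fold change of -0.04 (adjusted p 0.962). The 2 members that fell were Lhx1 and Isl1, which mark mesoderm as well as neurons. Lhx1 was at 20, 22, 35.6 and 13.5 CPM in XAV939 libraries against 75.6, 123, 80.4 and 43.6 CPM in untreated libraries, without overlap (log2 fold change -1.82, adjusted p 0.0216, and 0.254 without pairing). Its adjusted p was 0.0777 without pair 1, 0.0977 without pair 2 and 0.055 without pair 4. Isl1 fell by 1.28 (adjusted p 0.0174), with 0.159 without pairing, 0.118 without pair 2 and 0.0835 without pair 3.

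Genes that mark regions of the neural tube differed between XAV939 libraries. Of 20 tested midbrain and hindbrain genes 1 rose and 0 fell, with a median log2 fold change of 0.47 (4 rose without pairing and 2 without pair 3). En1, a homeobox factor of the midbrain and first rhombomere, was at 26.1, 0.275, 0.486 and 15.5 CPM in XAV939 libraries against 0.16, 0.143, 0.614 and 0.264 CPM in untreated libraries. Libraries 1 and 4 of the XAV939 group were high, and libraries 2 and 3 were within or near the untreated range. With a log2 fold change of 4.21 and an SE of 1.34 En1 did not pass the test (adjusted p 0.0542), and its adjusted p was 0.0191 without pairing and 0.0161 without pair 3. En2 followed the same libraries, at 64.6, 2.01, 3.16 and 34.6 CPM in XAV939 libraries and at 0.773, 1.43, 2.55 and 2.46 CPM in untreated libraries (adjusted p 0.0699, and 0.00893 without pairing, 0.0429 without pair 2 and 0.0378 without pair 3). Pax5 (chromosome 4, 44524757 to 44710487), a paired box factor of the midbrain-hindbrain boundary, was at 177, 19.6, 23.3 and 93.9 CPM in XAV939 libraries against 6.56, 9.65, 3.94 and 18.8 CPM in untreated libraries. Every XAV939 library was above every untreated one, though library 2 only slightly (log2 fold change 2.63, SE 0.73, adjusted p 0.0247). Its call ended without pair 1 (0.127), pair 3 (0.0793) or pair 4 (0.0603). Wnt1, the ligand of the midbrain-hindbrain boundary and dorsal neural tube, was at 14.7, 0.413, 0.189 and 3.2 CPM in XAV939 libraries and at 2.24, 0.257, 0.259 and 0.41 CPM in untreated libraries (adjusted p 0.19). Gbx2, a hindbrain factor, had a log2 fold change of -0.13 (adjusted p 0.766), with 43.5% of its exonic bases shared with a gene on the opposite strand. Egr2, another hindbrain factor, had one of 1.13 (adjusted p 0.124).

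**Figure D3:**
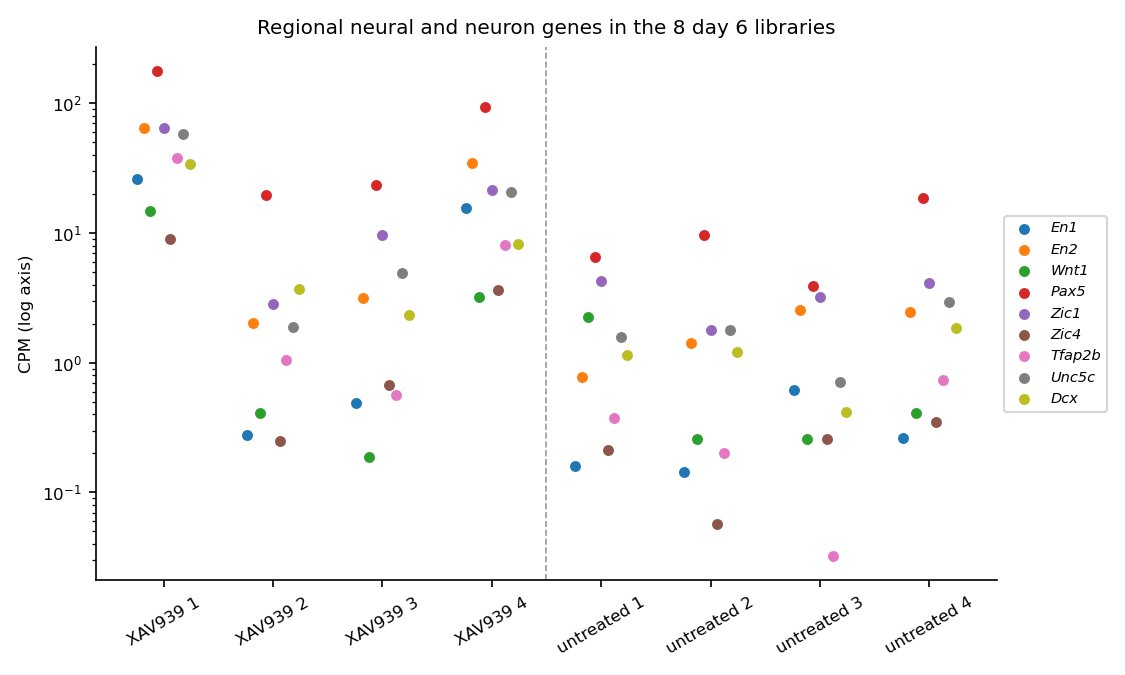
Level of 9 genes of neural regions and neurons in CPM on a log axis, with the 4 XAV939 libraries at the left of the dashed line and the 4 untreated libraries at the right. XAV939 libraries 1 and 4 held the highest levels of En1 (26.1 and 15.5 CPM), En2 (64.6 and 34.6 CPM) and Pax5 (177 and 93.9 CPM), while libraries 2 and 3 lay near the untreated libraries for En1 and En2.

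Of 13 tested genes of the dorsal neural tube 5 rose and 0 fell, with a median log2 fold change of 0.63 (2 rose without pairing and 3 without pair 3). They were Pax7, Msx3, Zic1, Zic4 and Bmp6. Pax7 was at 57.5, 9.86, 14.8 and 37.1 CPM in XAV939 libraries against 8.18, 4.77, 4.33 and 12.3 CPM in untreated libraries. Libraries 1 and 4 were again the highest of both groups (log2 fold change 1.82, SE 0.329, adjusted p 0.00123, and 0.114 without pairing). Zic1 was 4.61-fold higher (adjusted p 0.0091, and 0.0779 without pair 1), Zic4 11.3-fold higher (adjusted p 0.0029), and Msx3 4.56-fold higher (adjusted p 0.0292). The call of Msx3 ended without pairing (0.0684), without pair 1 (0.149), pair 3 (0.0711) or pair 4 (0.0839). Among 14 tested ventral genes Prdm12 and Nkx6-2, which mark progenitor domains of the ventral spinal cord and hindbrain, rose, with a median of 0.27 (5 rose without pair 3). Prdm12 was at 11.5, 0.991, 0.621 and 2.84 CPM in XAV939 libraries and at 1.39, 0.314, 0.194 and 0.41 CPM in untreated libraries. With XAV939 all 4 pairs were higher, and library 1 was the highest of each group (log2 fold change 2.48, adjusted p 7.94e-04), and it shares 8.09% of its exonic bases with an antisense gene. Nkx6-2 rose 3.02-fold (adjusted p 0.0207), which ended without pair 1 (0.108), pair 2 (0.148) or pair 4 (0.051). The gene of the floor plate signal Shh had a log2 fold change of 0.23 (adjusted p 0.675, and 0.76 with adjusted p 0.0414 without pair 3), the ventral progenitor gene Nkx6-1 one of 0.70 (adjusted p 0.0764) and Olig2, of motor neuron progenitors, one of 0.55 (adjusted p 0.177).

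Forebrain and eye genes moved in both directions. Of 17 tested, Hesx1, Rax and Emx2 fell and 1 gene rose, with a median log2 fold change of -0.30. Hesx1, a repressor of the anterior neural plate, was at 3.55, 3.88, 1.73 and 0.599 CPM in XAV939 libraries against 13, 19.2, 12.5 and 6.68 CPM in untreated libraries. No XAV939 library reached the untreated range (log2 fold change -2.56, SE 0.593, adjusted p 0.00789). Rax, of the eye field, did not exceed 2.71 CPM in any library and was 5.89-fold lower (adjusted p 0.00481), and Emx2, of the dorsal forebrain, had a log2 fold change of -1.51 (adjusted p 5.49e-04, and 0.345 without pairing). Emx2 shares 8.79% of its exonic bases with an antisense gene. Otx2, of the forebrain, midbrain and epiblast, was at 122, 39.2, 25 and 36.9 CPM in XAV939 libraries and at 87.1, 140, 100 and 55 CPM in untreated libraries. Pair 1 was higher and the other 3 pairs lower with XAV939 (log2 fold change -0.99, adjusted p 0.135). Without pair 1 the log2 fold change was -1.48 (adjusted p 0.038). Six3, of the anterior forebrain, had one of -0.58 (adjusted p 0.408).

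Of 16 tested neural crest genes 5 rose and 3 fell, with a median log2 fold change of -0.13 (2 rose and 2 fell without pairing, 3 and 3 without pair 3). Tfap2b, an AP-2 factor of crest and dorsal neurons, was at 38.1, 1.05, 0.567 and 8.13 CPM in XAV939 libraries against 0.373, 0.2, 0.0323 and 0.733 CPM in untreated libraries. All 4 pairs were higher with XAV939, and XAV939 libraries 1 and 4 were the highest (log2 fold change 4.52, SE 0.779, adjusted p 0.00182). The endothelin receptor gene Ednrb rose 2.58-fold (adjusted p 0.0124, and 0.143 without pairing and 0.0727 without pair 3). Pax7 and Nr2f1 of this list rose as well. Erbb3, a receptor gene listed here for migrating crest, fell by 1.20 (adjusted p 0.00334), and Snai2 and Twist1 fell too. Erbb3 was higher at day 3, at 44.2 CPM with XAV939 and 47.3 CPM untreated, than at day 6, at 7.26 and 17 CPM. Whether its reads came from crest cells was not tested. Sox10, the factor that defines migrating crest, was at 1.74 ± 0.371 CPM in XAV939 aggregates and 1 ± 0.324 CPM in untreated aggregates (adjusted p 0.186).

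Trunk genes were lower on average in XAV939 aggregates but few passed the test. In the Hox clusters, each of 12 tested genes of groups 1 to 4 (the anterior paralogues) had a negative fold change, with a median log2 of -0.43, and 0 were called. All 11 of groups 5 to 8 were negative too, with a median of -0.92, and 1 was called. That was Hoxd8, at 0.624 ± 0.143 CPM in XAV939 aggregates and 1.5 ± 0.154 CPM in untreated aggregates (adjusted p 0.0481), and its call ended without any 1 pair (adjusted p 0.0638 to 0.152), without pairing (0.158), and with DESeq2 (0.0666), no filter (0.0518) or length and GC offsets (0.0703). Hoxb9 (chromosome 11, 96271457 to 96276595), of the thoracic trunk, was at 71, 73.1, 181 and 142 CPM in XAV939 libraries against 251, 107, 107 and 226 CPM in untreated libraries. Pair 3 was higher and the other 3 lower with XAV939 (log2 fold change -0.58, SE 0.386, adjusted p 0.36). Hoxc6 was likewise lower in 3 pairs and higher in pair 3, and it was 2-fold lower overall (adjusted p 0.124), with a log2 fold change of -1.44 (adjusted p 0.0372) without that pair. The list of groups 5 to 8 summed to 36.4, 54.9, 119 and 83 CPM in XAV939 libraries and 129, 88.1, 108 and 144 CPM in untreated libraries.

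Of 23 tested presomitic and somitic genes 6 fell and 0 rose, with a median log2 fold change of -0.87. Tcf15, a helix-loop-helix factor of somites, was at 5.67, 8.15, 7.7 and 6.07 CPM in XAV939 libraries against 18.8, 9, 37.5 and 11.4 CPM in untreated libraries, with no overlap (log2 fold change -1.28, SE 0.242, adjusted p 0.00179). Meox1, a homeobox gene of somites, was lower in all 4 pairs and its groups, at 77.8 ± 16.5 CPM in XAV939 aggregates and 146 ± 51.9 CPM in untreated aggregates, overlapped (adjusted p 0.157). Foxc2, of paraxial mesoderm, fell by 1.11 (adjusted p 0.0274). Its adjusted p was 0.189 without pairing, 0.225 with DESeq2, 0.0694 with no filter and 0.0553 to 0.128 without pair 1, 3 or 4. Tbx6, of the presomitic mesoderm, was at 4.11, 3.8, 22.9 and 6.64 CPM in XAV939 libraries and at 1.89, 13, 33.2 and 14.2 CPM in untreated libraries (adjusted p 0.464), with library 3 the highest of both groups. Cdx2, a caudal homeobox factor, was also highest in library 3 of both groups, at 34.3 ± 26.2 CPM in XAV939 aggregates and 52.3 ± 38.3 CPM in untreated aggregates (adjusted p 0.349).

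The enzymes of retinoic acid moved apart. Cyp26a1 (chromosome 19, 37697798 to 37701536), which degrades retinoic acid in the tail bud and anterior neural plate, was at 17.1, 18.6, 25.6 and 9.53 CPM in XAV939 libraries against 77.8, 99.3, 136 and 31.4 CPM in untreated libraries. Library 3 was the highest and library 4 the lowest of each group, without overlap between them. Cyp26a1 was 4.56-fold lower with XAV939 (log2 fold change -2.19, SE 0.204, adjusted p 2.23e-06). Cyp26b1, which degrades it in the hindbrain and limb, was at 21, 42.7, 9.73 and 36.9 CPM in XAV939 libraries and at 3.54, 8.83, 3.88 and 13.8 CPM in untreated libraries, higher in every pair (log2 fold change 1.90, SE 0.326, adjusted p 7.7e-04). Aldh1a2, which makes retinoic acid in the somites, was at 88.3, 88.2, 236 and 95.9 CPM in XAV939 libraries and at 112, 181, 319 and 175 CPM in untreated libraries. All pairs were lower with XAV939, library 3 was high in both groups, and the groups overlapped (log2 fold change -0.67, SE 0.438, adjusted p 0.347). Of the binding proteins and receptors, Crabp1 rose 1.87-fold (adjusted p 0.044) and Rarg fell by 0.64 (adjusted p 0.0119). The call of Crabp1 ended without pairing (0.266), with no filter (0.112) and without any 1 pair (0.0544 to 0.161), and that of Rarg without pairing (0.293) and without pair 1 (0.079). Of 18 tested genes of retinoic acid metabolism and reception 2 rose and 2 fell, with a median of -0.29 (1 and 1 without pairing, 1 and 2 without pair 3).

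Vgll3 (chromosome 16, 65815257 to 65866368), a cofactor of the Tead transcription factors, was among the largest rises. It was at 10.7, 16.1, 7.64 and 12.4 CPM in XAV939 libraries against 0.533, 1.57, 1.55 and 4.92 CPM in untreated libraries, without overlap (log2 fold change 2.71, SE 0.504, adjusted p 0.00156). The nuclear receptor gene Nr2f1 rose by 1.36 (adjusted p 0.046), but its call ended without pairing (0.168), with DESeq2 (0.117), with no filter (0.129) and without any 1 pair (0.0718 to 0.152). Its relative Nr2f2 was at 38.3 ± 11.7 CPM in XAV939 aggregates and 27.8 ± 16.2 CPM in untreated aggregates (adjusted p 0.281). Of 15 tested genes of a list of Nr2f and Vgll3 genes, Tead factors and their partners and targets, 3 rose (Vgll3, Nr2f1 and Wwtr1) and 2 fell (Tead4 and Ccn1), with a median of 0.36 (1 rose and 2 fell without pairing, 2 and 2 without pair 3). Tead4 fell by 1.34 (adjusted p 3.2e-04) and the target gene Ccn1 by 0.89 (adjusted p 0.00155), while Wwtr1, which encodes Taz, rose by 0.36 (adjusted p 0.0268). The call of Wwtr1 ended without pairing (0.246), with length and GC offsets (0.216) and without any 1 pair (0.0622 to 0.0755).

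Lrtm1 and Slitrk6 were among the 12 largest rises. Lrtm1, a leucine-rich repeat gene, was at 14.1, 0.826, 0.567 and 4.71 CPM in XAV939 libraries against 0.906, 0.143, 0.129 and 0.234 CPM in untreated libraries, and Slitrk6, a synaptic adhesion gene, at 33.4, 2.34, 1.78 and 18 CPM in XAV939 libraries against 1.04, 0.714, 0.162 and 1.96 CPM in untreated libraries. XAV939 libraries 1 and 4 were the highest for both genes, and all 4 pairs had the same direction (log2 fold change 3.59, SE 0.586, adjusted p 5.02e-04 for Lrtm1 and 3.42, SE 0.64, adjusted p 0.00211 for Slitrk6). Of 30 tested axon guidance genes 4 rose and 2 fell, with a median log2 fold change of 0.04. Unc5c, a netrin receptor, was at 58.2, 1.87, 4.92 and 20.6 CPM in XAV939 libraries and at 1.57, 1.8, 0.711 and 2.96 CPM in untreated libraries (log2 fold change 2.81, adjusted p 0.00581, and 0.053 without pair 1). Dcc, another netrin receptor, rose 4.25-fold (adjusted p 0.002), whereas Unc5b fell by 1.52 (adjusted p 8.35e-05), with 16.8 ± 4.57 CPM in XAV939 aggregates and 48.1 ± 11.6 CPM in untreated aggregates. The ephrin receptor gene Epha7 rose 1.74-fold (adjusted p 0.00172). Hpgds, a prostaglandin D synthase gene, was high in XAV939 libraries 1 and 4 as well, at 16.9 and 8.91 CPM against at most 1.73 CPM in the other 6 libraries (log2 fold change 3.04, adjusted p 0.0183, and 0.109 without pair 1, 0.0821 without pair 4 and 0.0726 with no filter). The microRNA host gene Mir100hg was 4.96-fold higher (adjusted p 8.35e-05).

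Among the largest falls, Kcnj5 (chromosome 9, 32314707 to 32344350), a potassium channel gene, stood at 3.15, 2.34, 2.08 and 0.886 CPM in XAV939 libraries against 22.6, 23.2, 15.4 and 4.63 CPM in untreated libraries. All untreated libraries were above the XAV939 ones (log2 fold change -2.88, SE 0.197, adjusted p 6.42e-08). Nxf7, of the nuclear RNA export factor family, was 8.41-fold lower (adjusted p 2.06e-07) and Pga5, a pepsinogen gene, 10.1-fold lower (adjusted p 3.59e-05), each without overlap between the groups. Robo3, of the Slit receptor family, was at 2.34, 2.45, 3.13 and 1.17 CPM in XAV939 libraries and at 38.5, 22.8, 14.8 and 4.92 CPM in untreated libraries (log2 fold change -2.92, SE 0.545, adjusted p 0.00159). Stk32a, a kinase gene, fell 7-fold (adjusted p 6.85e-05) and Nipal4, a magnesium transporter gene, 6.01-fold (adjusted p 7.55e-05). Library 4 was the lowest untreated library for Kcnj5, Nxf7, Pga5, Robo3, Stk32a and Nipal4.

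Other lists held few calls. Of 21 tested FGF/ERK genes Fgfr3 rose and Fgf5 and Dusp4 fell. Of 19 Notch genes the targets Hey1 and Hes1 fell. Of 15 Hedgehog and floor plate genes Gli3, a Hedgehog-controlled transcription factor, rose 1.57-fold (adjusted p 0.0133). Of 13 naive pluripotency genes Tbx3 and Klf5 fell, Tbx3 by 2.25 (adjusted p 3.66e-05), and of 17 epiblast genes Fgf5 and the DNA methyltransferase gene Dnmt3b fell, Dnmt3b by 0.73 (adjusted p 0.0319). Of 21 cell cycle genes Cdkn2a and Cdkn2b, inhibitors of cyclin-dependent kinases, fell, Cdkn2a by 1.43 (adjusted p 0.00168) and Cdkn2b by 2.39 (adjusted p 2.81e-05). The calls of Fgfr3, Dusp4, Hes1, Hey1, Gli3, Tbx3, Klf5 and Dnmt3b ended without pairing (adjusted p 0.0617 to 0.306). Those of Fgfr3, Dusp4, Hes1, Hey1, Gli3, Klf5 and Dnmt3b also ended without at least 1 of the pairs (0.0515 to 0.237). In the lists of genes encoded in mitochondria (10 tested), the integrated stress response (16), heat shock (10), p53 targets (14) and cholesterol synthesis (18), between 0 and 2 members were called. Of 13 surface ectoderm genes 5 fell, among them Cdh1, Krt8 and Krt18 of the epithelial list, and of 12 genes of extraembryonic endoderm 5 fell, among them Lamb1 and Col4a1 (1 without pairing, 2 without pair 3). Of 10 germ cell genes 1 fell and 0 rose, and of 21 glycolysis and hypoxia genes 1 rose and 0 fell. Of 14 caudal genes Cyp26a1 and Evx1 fell, with a median of -0.48. The call of Evx1 ended without pairing (adjusted p 0.329), with no filter on low counts (0.0542) and without pair 1 (0.0506), pair 2 (0.0892) or pair 3 (0.0623).

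The effect of XAV939 at day 6 was then set against that of the day before and the day after, each with its own untreated libraries. The same fit called 495 genes higher and 745 lower at day 5 (2.93% and 4.41%, 7.35% in all) and 159 higher and 222 lower at day 7 (0.942% and 1.32%, 2.26% in all). Of the 732 genes higher at day 6, 244 were also higher at day 5, which is 33.3% of the day 6 genes and 49.3% of the day 5 genes, and 102 at day 7 (13.9% and 64.2%). Of the 995 lower at day 6, 323 were lower at day 5 (32.5% and 43.4%) and 180 at day 7 (18.1% and 81.1%). Sirpa was the 1 gene called lower at day 6 and higher at day 5. A test of the difference itself called 11 genes between days 5 and 6 (0.0652%), 5 with a higher day 6 effect (0.0296%) and 6 with a lower one (0.0355%), and 0 between days 6 and 7 (0%). Between days 6 and 7 edgeR gave 724 genes an unadjusted p under 0.05 (4.29%), and DESeq2 called 14.

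Nes and Dcx differed between days 5 and 6. Their log2 fold changes at day 5 were 0.18 and 0.06, at day 6 1.18 and 2.87, and at day 7 0.79 and 1.62. The day 6 effect exceeded that of day 5 by 1.0 for Nes (SE 0.158, adjusted p 0.0206) and by 2.81 for Dcx (SE 0.505, adjusted p 0.039). St18 and Cobl also had a higher day 6 effect. St18, a zinc finger gene of neurons, had a log2 fold change of 4.43 at day 6 and of -0.43 at day 5. The difference of 4.86 (SE 0.75, adjusted p 0.0206) came from a gene with group means below 5 CPM on both days. Cobl, an actin nucleator gene, fell by 1.20 at day 5 and had a log2 fold change of 0.29 at day 6 (adjusted p 0.337).

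In the other direction, Clic6, a chloride channel gene, was at 7.99, 5.62, 5.94 and 4.22 CPM in XAV939 libraries against 35.6, 27.8, 14.9 and 10.3 CPM in untreated libraries at day 6. Its groups were apart, with a log2 fold change of -1.78 at day 6 (SE 0.152, adjusted p 8.71e-07) and of -0.12 at day 5. The difference of -1.66 had an adjusted p of 0.00414. Nxf7, Adora1, Pdyn and Cdkn2b likewise had a lower effect at day 6 than at day 5, with differences of -2.12, -1.71, -2.23 and -2.10 on the log2 scale. Their log2 fold changes at day 5 were -0.95, -0.02, 0.13 and -0.29. Adora1, Pdyn and Cdkn2b had group means below 5 CPM on both days. Cdkn2b averaged 0.457 CPM with XAV939 and 2.65 CPM in untreated aggregates at day 6, and its difference passed narrowly (adjusted p 0.05 after rounding). Sirpa, a membrane protein gene that binds Cd47, rose by 0.51 at day 5 (adjusted p 0.00378) and fell by 0.35 at day 6 (adjusted p 0.0267), a difference of -0.86 (adjusted p 0.0206). Its fall at day 6 ended without pairing (0.308) and without pair 1, 2 or 3 (0.079 to 0.0941). The number of genes called in this test depended on single pairs. Without pair 1 of day 6 it was 1, without pair 2 it was 3, without pair 3 it was 23 and without pair 4 it was 29. Without pair 3 of day 5 it was 4, and without pair 4 of day 5 it was 17.

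Members of the epithelial and endoderm lists were lower on all 3 days. Epcam had log2 fold changes of -0.68, -1.65 and -0.92 at days 5, 6 and 7, Cldn6 of -1.81, -1.51 and -0.97, and Gata4 of -2.46, -3.23 and -1.70, and all 9 passed the test. Of the epithelial list 15 genes fell at day 5, 16 at day 6 and 11 at day 7. Of 11 genes of Hox groups 5 to 8, 9 fell at day 5, 1 at day 6 and 0 at day 7, with medians of -2.90, -0.92 and -0.35. Hoxc6 had a log2 fold change of -4.97 at day 5 and of -0.45 at day 7, and Aldh1a2 had -4.15, -0.67 and -0.22 at days 5, 6 and 7. The day 5 levels of Hoxc6 were near 0, at 0.0209 CPM on average with XAV939 and 0.805 ± 1.28 CPM in untreated aggregates. Those of Aldh1a2 averaged 2.07 CPM with XAV939 and 69 ± 98.5 CPM in untreated aggregates, whose libraries ran from 4.82 to 216 CPM. The day 6 effect differed from that of day 5 by 3.97 for Hoxc6 (SE 1.12, adjusted p 0.264) and by 3.48 for Aldh1a2 (SE 0.737, adjusted p 0.0846), and neither difference passed the test. Neuron genes that rose numbered 3 at day 5, 12 at day 6 and 9 at day 7, out of 27. The test of the difference itself called 1 of these 27 between days 5 and 6 and 0 between days 6 and 7. For the epithelial list and Hox groups 5 to 8 it called 0 in both, so these counts by day do not show a change between days. Vgll3 had log2 fold changes of 2.87, 2.71 and 0.40 at days 5, 6 and 7, and the difference between days 6 and 7 was 2.31 (SE 0.745, adjusted p 0.718).

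**Figure D4:**
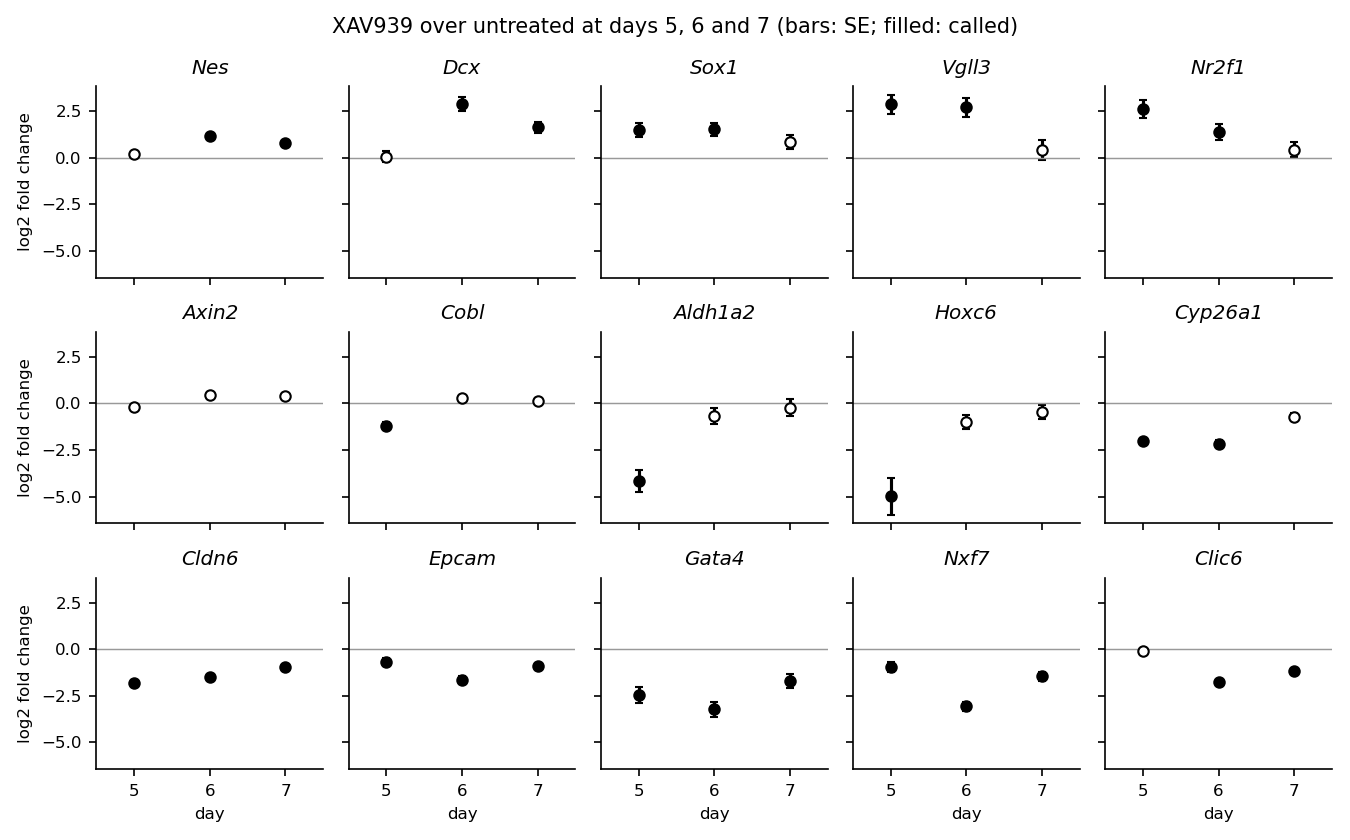
Log2 fold change, XAV939 over untreated, of 15 genes at days 5, 6 and 7, with bars of 1 SE and filled points where the gene was called. Nes and Dcx were near 0 at day 5 and positive at day 6, Aldh1a2 and Hoxc6 were at -4.15 and -4.97 at day 5 and not called at days 6 and 7, and Cldn6, Epcam and Gata4 were called lower on all 3 days. At day 5 Hoxc6 did not exceed 2.72 CPM in any library, and untreated levels of Aldh1a2 ran from 4.82 to 216 CPM.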

How the data were processed

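RNA extracted with Trizol from 40 libraries was sequenced as 81 bp pairs from 300 ng input with a stranded TruSeq mRNA kit, per the labels' protocols. The authors deposited whole-number read counts for 26906 genes in 1 table. Basecalls were converted with bcl2fastq 2.20.0 and the genome build was mm10, per the submitters' processing notes. The aligner, the counting tool, its annotation and its strand setting were not given in the sources used here. Gene coordinates are those of GENCODE M21 on mm10, found for 26881 genes, and promoters are those of RefSeq on GRCm38.p6.

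Libraries held between 30197759 and 44086019 counts. Genes were kept by edgeR's filterByExpr (minimum count 10, minimum total 15), which left 16878. Counts were scaled with TMM and tested with edgeR 4.0.16 (R 4.3.3) by its robust quasi-likelihood test over all 40 libraries, with 10 group means and the replicate number within each day as a block (15 residual degrees of freedom). P-values were adjusted by the Benjamini-Hochberg method over all genes tested, and genes below 0.05 were called. An SE is the absolute log2 fold change over the square root of F. The pairs follow the replicate numbers in the labels. Same-numbered libraries deviated together from their group means at day 6, with correlations across genes of 0.279 to 0.404 in all 4 pairs. Libraries of 1 day 6 group differed by far more than sampling noise, so none was counted as a duplicate. Counts were simulated for day 6 from the fitted means and spreads of this same model, with 200 of 16770 genes changed. Only genes above a minimum average level were changed. The test recovered 79% of 2-fold and 99% of 4-fold changes, and 4.3% of its 186 calls were false. Because the model that made the counts is the one tested, this cannot show how many calls on the real counts are false. It gives no recovery for genes at low levels.

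The members and the gene lists were chosen with earlier results of these data known. Named genes were the 12 largest rises and the 12 largest falls with the same direction in all 4 pairs and at least 5 CPM in the higher group, 2 to 4 members of each list, a panel of 60 genes and the genes called between days. Adora1, Apc2, Ednrb, Gata1, Gli3, Hoxd8, Isl1, Krt5, Lhx1, Map2, Msx3, Pdyn, Snai1, St18, Tnnt2, Ttr and Zeb1 lie outside that rule and were named after their values had been seen. Afp, Amn, Cldn4, Hbb-bh1, Krt7, Nkx2-5, Pou3f1, Rab25 and Trp63 lie outside it as well. Alternatives used no block, RLE scaling, DESeq2 1.42.0 with the block, other filters, offsets for length and GC content, the 8 libraries alone and each pair left out. Some genes are not reported here.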

Additional observations from a re-analysis of the deposited data

Results flagged for a closer look

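The levels of 149 of the genes named in the text were searched in each day 6 group for a library far from the other 3 on the log scale by Dixon's criterion. This gave 15 of 298 groups, and chance alone gives about 1 in 20.

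Among XAV939 libraries, Isl1 was at 8.34 CPM in library 1 against 1.67 to 2.19 CPM in the others, and Hey1 at 16.4 CPM in library 1 against 18.3 to 18.6 CPM. Library 3 held 156 CPM of Nes against 305 to 319 CPM, and 236 CPM of Aldh1a2 against 88.2 to 95.9 CPM. In library 4 Gata6 was at 2.32 CPM against 4.49 to 5.02 CPM and Adora1 at 0.547 CPM against 0.973 to 1.06 CPM.

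Among untreated libraries, library 1 held 7.97 CPM of Snai2 against 1.23 to 1.52 CPM in the others, 55.6 CPM of Kdr against 5.16 to 7.37 CPM, 203 CPM of Col4a1 against 148 to 150 CPM and 0.426 CPM of Nkx6-2 against 1.03 to 1.07 CPM. Library 3 was the lowest for Nkx6-1, at 5.4 CPM against 11 to 12.5 CPM, for Epha7, at 20.5 CPM against 46.1 to 50.6 CPM, and for Thbs1, at 5.85 CPM against 15 to 17.9 CPM. Library 4 held 27 CPM of Eomes against 76.2 to 93.5 CPM and 30.9 CPM of Unc5b against 52.5 to 56.1 CPM.

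The effect of XAV939 differed between days 6 and 5, by the test of the difference itself, in 11 genes. Among those named here, on the log2 scale the day 6 effect minus the day 5 effect was 4.86 for St18, 2.81 for Dcx, 1.49 for Cobl and 1.0 for Nes, and -0.86 for Sirpa, -1.66 for Clic6, -1.71 for Adora1, -2.10 for Cdkn2b, -2.12 for Nxf7 and -2.23 for Pdyn. Adjusted p-values lay between 0.00414 and 0.05.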

How the results depend on the processing

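The counts of 732 higher and 995 lower genes at day 6 rested on the replicate block and on the number of libraries. Without the replicate block they were 235 and 498, and 717 of those 733 genes were also called with it. The 8 day 6 libraries alone with the block gave 101 and 210, no block without untreated library 3 gave 112 and 328, and a required log2 change of 1 or more in size left 281 and 530. A filter of 5 CPM in 4 libraries left 630 lower. Leaving out each pair gave 366 to 648 higher and 654 to 922 lower. Of the called genes, 42.4% were higher, against 32.1% without the block, 32.5% with the 8 libraries alone and 25.5% with no block and no untreated library 3. The 1240 calls of day 5 fell to 395 without the block. The 381 of day 7 became 1 without the block, 616 with DESeq2, 253 with no filter, 179 with the 5 CPM filter and 695 with length and GC offsets. The 11 genes that differed between days 6 and 5 became 0 without the block, 123 with DESeq2, 54 with length and GC offsets and 5 with no block and no untreated library 3, and 1 to 29 with 1 pair of either day left out. The 0 between days 6 and 7 became 14 with DESeq2 and 0 to 2 with 1 pair of either day left out. The leave-outs of pairs of days 5 and 7 were chosen after seeing the data. The cause of these changes was not tested, except that fewer libraries or genes entered some fits. Of 113 called genes named in the text, 71 kept their call without the block, 112 with RLE scaling, 106 with DESeq2, 99 with no filter, 108 with length and GC offsets, 51 of 110 with the 8 libraries alone, 84 of 87 with the 5 CPM filter, and 81, 94, 87 and 96 without pair 1, 2, 3 or 4. The calls that ended with the 8 libraries alone included those of Krt8, Krt18, Id1, Tbx20, Runx1, Tnc, Rgs5, Rax and Zic4. They also included those of Tcf15, Vgll3, Dcc, Epha7, Pou3f4, Ccn1, Tead4, Lamb1 and Cdkn2a. For the genes in these 2 sentences edgeR's adjusted p lay between 0.0531 and 0.16 in that fit. None of the 113 genes reversed in any of these fits. Genes at a few CPM or less are limited by depth as well as by 4 libraries a group.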
